A study of Arabidopsis thaliana with 27 samples.

Results

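A set of 10 genes of the heat stress response was followed through dark and UV-B treatment of etiolated Arabidopsis thaliana hypocotyls. They were 2 regulators (HSFA2 and MBF1C), 3 large chaperones (HSP101, HSP90.1 and HSP70) and 5 small heat shock proteins (HSP17.4, HSP17.6, HSP18.2, HSP21 and HSP22). The 10 genes were taken by locus number and not by a rule on measured values, but with earlier results of these data known. They came from a table of 32832 loci, and 9 of them were among the 19794 loci with enough counts to test. HSP21 was not tested. Seeds were kept in the dark for 2.5 days on medium with 100 µM of the gibberellin GA4, irradiated, and returned to the dark, and excised hypocotyls were taken for RNA 6 h later by the extraction protocol, whereas the title of the series names 2 days after UV-B, so the time of harvest is uncertain. The xpf-3 seedlings carried an allele of UVH1, which encodes the plant XPF subunit of the nucleotide excision repair endonuclease. The uvr8-6 seedlings carried an allele of UVR8, the UV-B photoreceptor gene, and wild type (WT) was the accession Columbia-0. Seedlings of each genotype were left in the dark or given UV-B at 3000 µmol m-2 (about 5 min, the low dose) or 30000 µmol m-2 (about 45 min, the high dose), with 3 libraries in each of the 9 groups. All groups shared the GA4 medium and the growth in darkness. Each mutant was 1 allele, and the labels do not say whether the libraries of a group came from separate harvests, so p-values measure only the spread between these libraries.

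Heat shock proteins are chaperones that bind partly unfolded proteins. Heat shock factors switch on their genes by binding heat shock elements, which are short repeats of the letters nGAAn in alternating orientation. HSFA2 is a heat-induced factor that prolongs the response, and MBF1C is a transcriptional coactivator of heat-stressed leaves. HSP101 is the cytosolic disaggregase needed for acquired thermotolerance, HSP90.1 and HSP70 are cytosolic ATP-dependent chaperones, and small heat shock proteins hold denatured proteins without ATP. HSP17.4 and HSP18.2 are cytosolic proteins of class I, HSP17.6 (AT5G12020) is cytosolic of class II, HSP21 is made for chloroplasts and HSP22 for the endomembrane system.

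Promoter letters of 2 members are shown first, since the heat shock element is what a heat shock factor would bind. Sequences, gene models and coordinates are from RefSeq on build TAIR10.1, and each stretch is the 120 bases before the annotated gene start, read 5′ to 3′ on the gene's strand. Capitals mark the letters GAANNTTC (an element of 2 units), alone or followed by NNGAA (an element of 3 units). The HSFA2 stretch is chr2:11135504-11135623 (plus strand), and the HSP17.4 stretch is chr3:16984868-16984987 (minus strand).
HSFA2: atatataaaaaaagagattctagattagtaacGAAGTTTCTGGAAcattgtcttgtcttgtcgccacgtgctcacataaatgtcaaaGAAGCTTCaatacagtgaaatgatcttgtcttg
HSP17.4: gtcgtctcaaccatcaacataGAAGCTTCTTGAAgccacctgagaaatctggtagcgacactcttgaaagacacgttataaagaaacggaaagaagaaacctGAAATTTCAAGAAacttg
HSFA2 and HSP17.4 were the 2 of 10 members with the element of 3 units (GAANNTTC followed by NNGAA, or its reverse complement, TTCNNGAA followed by NNTTC) within 250 bases of the gene start. Of 27443 promoters of that length, 106 (0.386%) held it. The element of 2 units (GAANNTTC or TTCNNGAA, each its own reverse complement and part of the longer element) was in 3 of 10 members, with HSP21 as the third, and in 4432 promoters (16.1%).

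Several annotated gene starts lie far upstream of the protein-coding part, so the same letters were also searched in the 500 bases before the coding start. The coding start was that of each gene's longest annotated transcript, and this window was chosen after the first was seen. In that window 5 of 10 members held the element of 3 units, against 330 of 27443 genes (1.2%). Besides the pair of elements of HSP17.4 shown above, the following members held 1 each, printed with 6 bases on both sides and the element in capitals. The HSP90.1 site is chr5:21352256-21352280 (plus strand), upstream of the gene start, which for HSP90.1 is also the annotated coding start. The HSP70 site, chr3:3993848-3993872 (minus strand), the HSP18.2 site, chr5:24062390-24062414 (plus strand), and the HSP22 site, chr4:6370381-6370405 (plus strand), lie in the annotated exon before the coding start.
HSP90.1: cgaaaaGAACTTTCTGGAAttcgtt
HSP70: actcgtGAACGTTCTCGAAagctct
HSP18.2: acaaacGAAACTTCCTGAAatgcca
HSP22: agatatTTCAAGAAACTTCttcatt
These matches describe letters and not bound sites, and windows without a match say nothing about a factor. MBF1C, HSP101, HSP17.6 and HSP21 had no match of 3 units in either window, and HSFA2 had none in the window before its coding start. HSFA2 has 4 annotated transcripts, and its window was set by the longest, with 873 coding bases. Coding starts of the other transcripts were not searched.

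The libraries held 4508097 to 15342281 counts. Those of xpf-3 held 4508097 to 11045334, those of uvr8-6 12488317 to 15342281 and those of WT 6163441 to 11984665, and none of the 351 pairs of libraries was close enough to be 1 library deposited again (chi-square per degree of freedom at least 3.56). Per the description sheet deposited with the counts, uvr8-6 was sequenced in a later run than xpf-3 and WT, so that a difference of uvr8-6 from WT and one between the runs cannot be told apart. UVR8 had 2.78 to 5.15 CPM (counts relative to the library total) in the 9 uvr8-6 libraries, against 58.9 to 82.3 CPM in the 9 WT libraries. UVH1 had 28.3 to 52.4 CPM in the 9 xpf-3 libraries, against 14.3 to 19.9 CPM in the 9 WT libraries. The labels do not say what the xpf-3 allele does to the RNA. Genes of the root endodermis (6 genes, all with counts in every group) summed to 953 to 1191 CPM in xpf-3, 251.4 to 619 CPM in uvr8-6 and 796.9 to 1124 CPM in WT dark libraries. After the high dose they summed to 41.97 to 132.8, 9.28 to 30.4 and 35.03 to 56.29 CPM. The 6 genes of green tissue summed to 838.5 to 1591 CPM in xpf-3, 1695 to 3023 CPM in uvr8-6 and 1139 to 1724 CPM in WT in the dark, and to 5693 to 9735, 4654 to 7072 and 3066 to 3361 CPM after the high dose. Ribosomal RNA genes took 0.304 to 0.406% of counts in xpf-3, 0.0933 to 0.282% in uvr8-6 and 0.362 to 0.468% in WT after the high dose, against 0.0166 to 0.0218%, 0.0249 to 0.0879% and 0.0072 to 0.00789% in the dark. These shifts move with the UV-B groups, and their part in the values below was not tested.

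Levels of different genes were compared as CPM per kilobase of the longest annotated transcript. All 2103 bases of the HSP90.1 model are coding, against 1953 of 2520 for HSP70 and 447 of 1092 for MBF1C. The level of HSP90.1 beside those of other genes is therefore uncertain. After the high dose in WT, HSP70 stood at 109.7 ± 8.11 CPM per kilobase, HSP90.1 at 63.8 ± 12.8, MBF1C at 44.5 ± 11.2 and HSP17.6 at 21.5 ± 5.84 (SD, n = 3 each). HSP101 followed at 12.7 ± 2.62 CPM per kilobase, HSFA2 at 5.29 ± 1.91, HSP18.2 at 4.63 ± 2.84, HSP17.4 at 3.46 ± 1.32, HSP22 at 1.66 ± 2.55 and HSP21 at 0.367 ± 0.271 (SD, n = 3 each). The ranges of HSP90.1 and MBF1C overlapped, as did those of HSFA2, HSP18.2, HSP17.4 and HSP22, and those of HSP22 and HSP21, so the order within these sets was within the spread. In WT in the dark, MBF1C (66.2 ± 41.1 CPM per kilobase) and HSP70 (31.5 ± 16.6) led, and the small heat shock proteins were the lowest, from HSP18.2 at 1.43 ± 0.986 to HSP21 with 0 counts (SD, n = 3 each). In xpf-3 the 3 highest after the high dose were HSP70, MBF1C and HSP90.1 at 59.6 ± 29.8, 36.8 ± 23.1 and 32.9 ± 15.71 CPM per kilobase, and in uvr8-6 HSP70, HSP90.1 and MBF1C at 67.2 ± 45.2, 43.6 ± 36.9 and 32.7 ± 27.6 (SD, n = 3 each). Their ranges overlapped within both mutants.

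**Figure D1:**
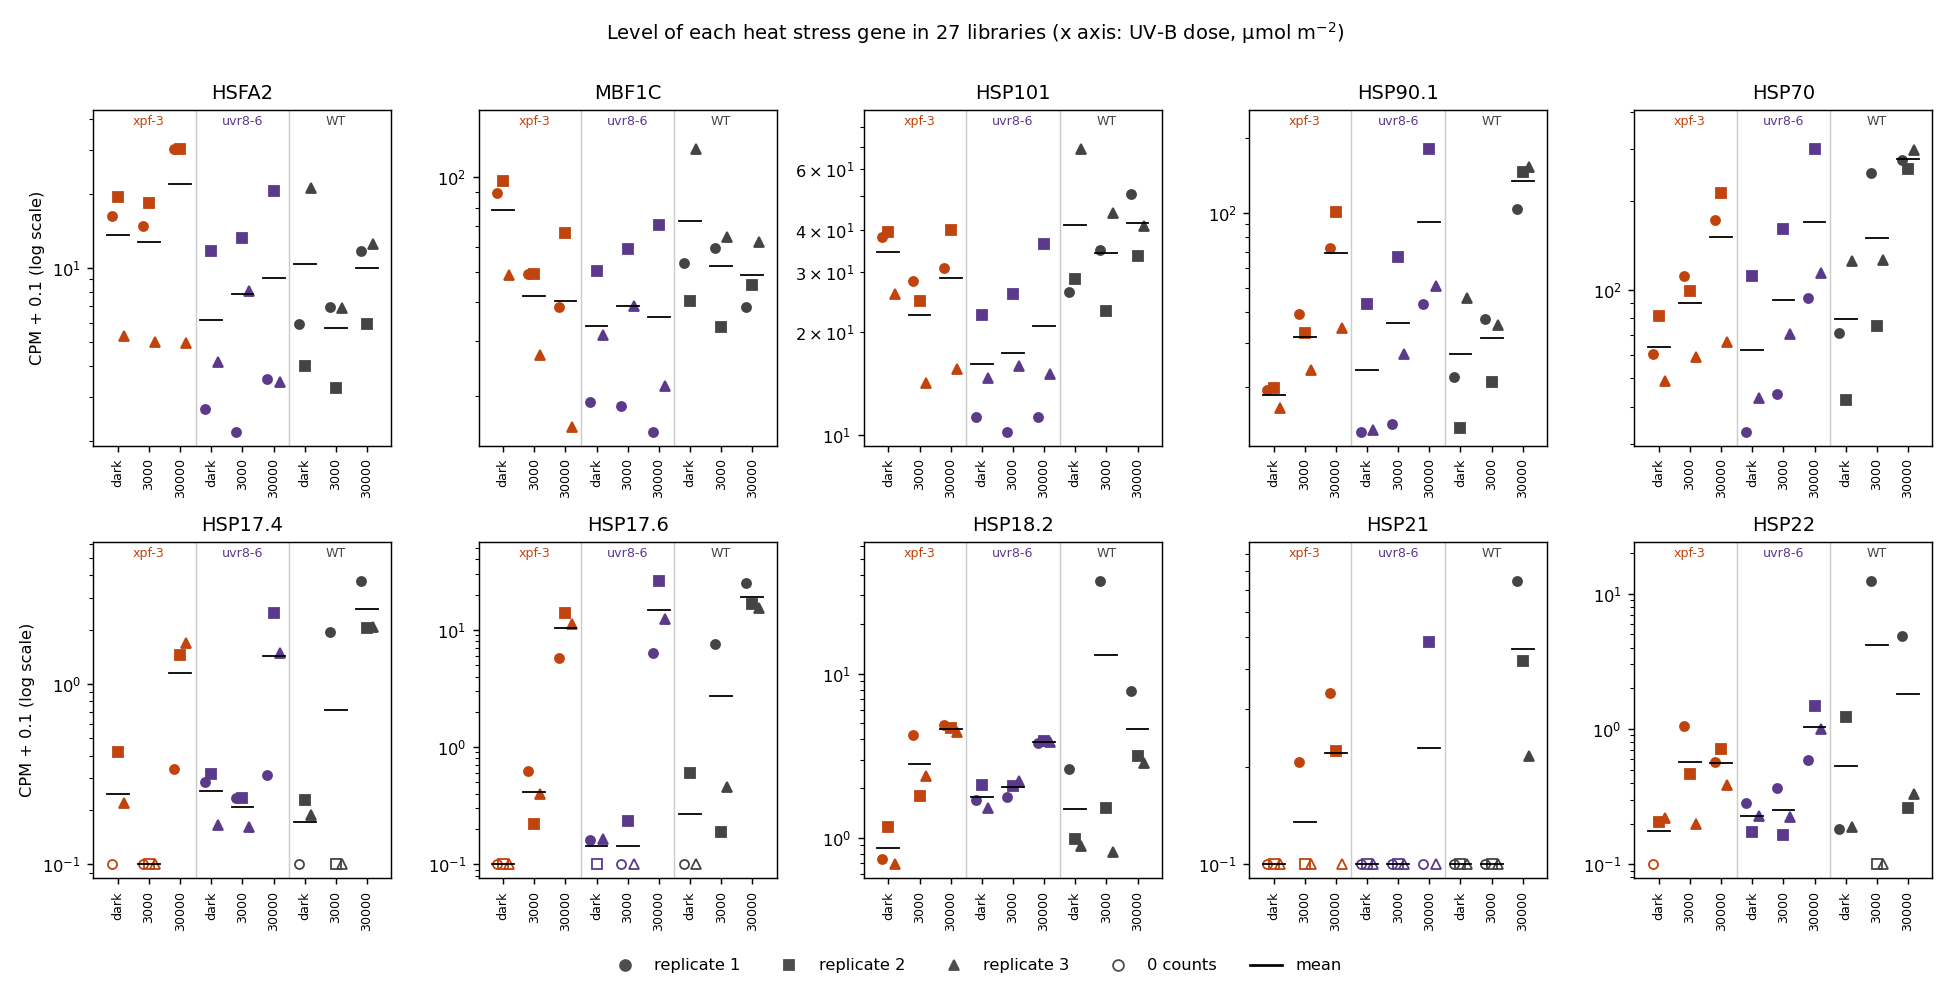
Level of each of the 10 genes in all 27 libraries, as CPM plus 0.1 on a log axis, with each gene on its own scale. Points are libraries, shapes are replicate numbers, open symbols are libraries with 0 counts and bars are group means; HSP17.6 lies above 5 CPM in all 9 high-dose libraries, while HSFA2, MBF1C and HSP101 spread widely within groups.

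The regulators HSFA2 and MBF1C, and HSP101, did not pass the test of UV-B against dark at either dose in any genotype. HSFA2 (AT2G26150, chr2:11135624-11137792, plus strand, 3 exons) had 16.1, 19.3 and 5.20 CPM in xpf-3 dark libraries, 14.74, 18.3 and 4.93 CPM after the low dose and 30.3, 30.3 and 4.87 CPM after the high dose. In uvr8-6 it had 2.59, 11.6 and 4.06 CPM in the dark, 2.08, 13.1 and 7.98 CPM after the low and 3.46, 20.3 and 3.35 CPM after the high dose. In WT it had 5.85, 3.91 and 21.0 CPM in the dark, 6.85, 3.17 and 6.82 CPM after the low and 11.6, 5.82 and 12.4 CPM after the high dose. Single libraries set the extremes of each group: replicate 3 of xpf-3 was the lowest and replicate 2 of uvr8-6 the highest of its group at every dose, and all treatments overlapped. The log2 fold change of HSFA2 against the dark was 0.66 ± 0.83 in xpf-3, 0.57 ± 0.85 in uvr8-6 and -0.05 ± 0.86 in WT at the high dose, and -0.12 ± 0.83, 0.37 ± 0.85 and -0.91 ± 0.89 at the low dose (± SE). None passed edgeR's quasi-likelihood test with Benjamini-Hochberg adjustment over all tested genes, which is behind every adjusted p below (adjusted p between 0.482 and 0.965). In RNA of whole hypocotyls, fewer cells of a type and less RNA per cell cannot be told apart.

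MBF1C (AT3G24500, chr3:8918267-8919683, plus strand, 1 exon) had 89.1, 97.3 and 48.8 CPM in xpf-3 dark libraries, 49.2, 48.9 and 27.03 CPM after the low and 38.3, 66.3 and 15.9 CPM after the high dose. In uvr8-6 MBF1C had 19.1, 50.1 and 31.2 CPM in the dark, 18.53, 59.0 and 38.6 CPM after the low and 15.33, 70.3 and 21.5 CPM after the high dose. In WT MBF1C had 53.1, 40.1 and 124 CPM in the dark, 59.3, 33.2 and 64.2 CPM after the low and 38.4, 45.2 and 62.2 CPM after the high dose. The 2 highest xpf-3 values were dark libraries, but the dark range overlapped that of both doses, and in uvr8-6 replicate 2 was the highest in each group. MBF1C differed from the dark by -0.96 ± 0.60 in xpf-3, 0.09 ± 0.58 in uvr8-6 and -0.57 ± 0.59 in WT at the high dose on the log2 scale (adjusted p = 0.155, 0.907 and 0.402). Without xpf-3 UV-B 30000 replicate 2 the xpf-3 value was -1.55 (adjusted p = 0.0465). With the replicate number as a block within genotype it was -1.06 ± 0.27 (adjusted p = 0.0023), although these libraries were not taken as paired. Their same-numbered deviations over all genes correlated at r = 0.0363, 0.162 and 0.0801. Differently numbered ones reached 0.0154.

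HSP101 (AT1G74310, chr1:27936508-27940369, minus strand, 6 exons) had 38.1, 39.2 and 25.8 CPM in xpf-3 dark libraries, 28.2, 24.6 and 14.1 CPM after the low and 30.8, 39.7 and 15.5 CPM after the high dose. In uvr8-6 HSP101 had 11.2, 22.4 and 14.6 CPM in the dark, 10.14, 25.9 and 15.8 CPM after the low and 11.2, 36.1 and 14.97 CPM after the high dose. In WT HSP101 had 26.1, 28.6 and 69.0 CPM in the dark, 34.8, 23.0 and 44.5 CPM after the low and 50.6, 33.4 and 40.8 CPM after the high dose. Doses overlapped within each genotype, and in the dark every uvr8-6 library lay below every WT library. The UV-B changes of HSP101 lay between -0.63 and 0.37 on the log2 scale and none passed (adjusted p between 0.247 and 0.986). In the dark HSP101 was lower in uvr8-6 than in WT, by a log2 fold change of -1.37 ± 0.47 (adjusted p = 0.0312). That call rested on single libraries, since the change was -0.77 without WT dark replicate 3 (adjusted p = 0.273), -1.17 without uvr8-6 dark replicate 1 (0.125) and -1.31 without uvr8-6 dark replicate 3 (0.0735). It was also lost without the filter on low counts (-1.31, adjusted p = 0.0648) and in a fit of only the groups compared (-1.29, 0.0728).

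HSP90.1 and HSP70, ATP-dependent chaperones of the cytosol, averaged higher after the high dose than in the dark in each genotype, but HSP70 did not pass in xpf-3. HSP90.1 (AT5G52640, chr5:21352557-21355147, plus strand, 4 exons) had 19.4, 19.8 and 16.4 CPM in xpf-3 dark libraries, 39.2, 32.9 and 23.4 CPM after the low and 72.2, 101 and 34.7 CPM after the high dose. In uvr8-6 HSP90.1 had 13.2, 43.3 and 13.5 CPM in the dark, 14.2, 66.6 and 27.2 CPM after the low and 43.2, 181 and 50.7 CPM after the high dose. In WT HSP90.1 had 21.8, 13.6 and 45.5 CPM in the dark, 37.5, 21.0 and 35.4 CPM after the low and 103, 146 and 153 CPM after the high dose. High-dose and dark libraries did not overlap in xpf-3 or WT, and in uvr8-6 they met at about the same level, 43.2 against 43.3 CPM. HSP90.1 rose after the high dose by a log2 fold change of 1.90 ± 0.64 in xpf-3 (adjusted p = 0.0124), 1.98 ± 0.62 in uvr8-6 (adjusted p = 0.00993) and 2.30 ± 0.63 in WT (adjusted p = 0.00325). Without xpf-3 UV-B 30000 replicate 2 the xpf-3 value was 1.53 (adjusted p = 0.0525), and without uvr8-6 UV-B 30000 replicate 2 the uvr8-6 value was 1.02 (adjusted p = 0.148). In WT the high dose also exceeded the low dose, by 2.10 ± 0.62 on the log2 scale (adjusted p = 0.00904). Against the low dose it differed by 1.12 ± 0.62 in xpf-3 (adjusted p = 0.213) and by 1.34 ± 0.60 in uvr8-6 (adjusted p = 0.0792). Leaving out uvr8-6 UV-B 3000 replicate 2, UV-B 30000 replicate 1 or UV-B 30000 replicate 3 took the uvr8-6 difference past the threshold, at 2.14, 1.68 and 1.62 (adjusted p = 0.0178, 0.0454 and 0.0468). Same-numbered uvr8-6 libraries of the dark and the high dose correlated at r = 0.156 to 0.357 in their deviations over all genes. Differently numbered ones reached 0.173. Between the doses these values were 0.215 to 0.384 and 0.0768. HSP90.1 was higher after the high dose than in the dark in each of the 3 same-numbered pairs. With the replicate number as a block the uvr8-6 value against the dark was 1.90 ± 0.29 (adjusted p = 5.09e-05) and that between the doses 1.299 ± 0.28 (adjusted p = 0.0018). In xpf-3 the low-dose value was 0.78 (adjusted p = 0.294), and it passed in a fit of only the groups compared (0.83, adjusted p = 0.00248).

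HSP70 (AT3G12580, chr3:3991117-3993886, minus strand, 2 exons) had 60.3, 81.4 and 48.8 CPM in xpf-3 dark libraries, 111, 98.8 and 59.1 CPM after the low and 172, 212 and 66.5 CPM after the high dose. In uvr8-6 HSP70 had 32.9, 111 and 42.9 CPM in the dark, 44.2, 160.2 and 70.7 CPM after the low and 93.7, 300.4 and 114 CPM after the high dose. In WT HSP70 had 71.2, 42.1 and 125 CPM in the dark, 248, 75.0 and 126 CPM after the low and 276, 257 and 297 CPM after the high dose. The high-dose WT libraries all lay above the dark and low-dose WT libraries, whereas the high-dose and dark ranges overlapped in both mutants. In uvr8-6 each of the 3 high-dose libraries lay above the dark library of the same number. After the high dose HSP70 rose by a log2 fold change of 1.44 ± 0.59 in uvr8-6 (adjusted p = 0.0437) and 1.80 ± 0.60 in WT (adjusted p = 0.013), beside 1.24 ± 0.60 in xpf-3, which did not pass (adjusted p = 0.0692). Without WT dark replicate 2 the WT value was 1.49 (adjusted p = 0.0614). The uvr8-6 value was 0.74 without UV-B 30000 replicate 2 (adjusted p = 0.314), 1.13 without dark replicate 1 (0.149) and 1.23 without dark replicate 3 (0.138), and the xpf-3 value was 1.58 without UV-B 30000 replicate 3 (0.0281). The uvr8-6 call was also lost with DESeq2 size factors (1.39, adjusted p = 0.0518), without the filter on low counts (1.35, 0.0897) and in a fit of only the groups compared (1.395, 0.0766), while with the replicate block it was 1.45 ± 0.30 (adjusted p = 0.000713). At the low dose HSP70 differed from the dark by 0.50 ± 0.59 in xpf-3, 0.56 ± 0.59 in uvr8-6 and 0.91 ± 0.59 in WT (adjusted p = 0.476, 0.681 and 0.286). Same-numbered libraries of WT dark and WT UV-B 3000 correlated at r = 0.384, 0.133 and 0.227 in their deviations over all genes, and differently numbered ones at up to 0.285. With the block the WT value passed, at 0.89 ± 0.30 (adjusted p = 0.0373). In uvr8-6 the high dose against the low dose passed with the block as well, at 0.89 ± 0.29 (adjusted p = 0.0227, against 0.88 ± 0.58 and 0.235 without it).

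**Figure D2:**
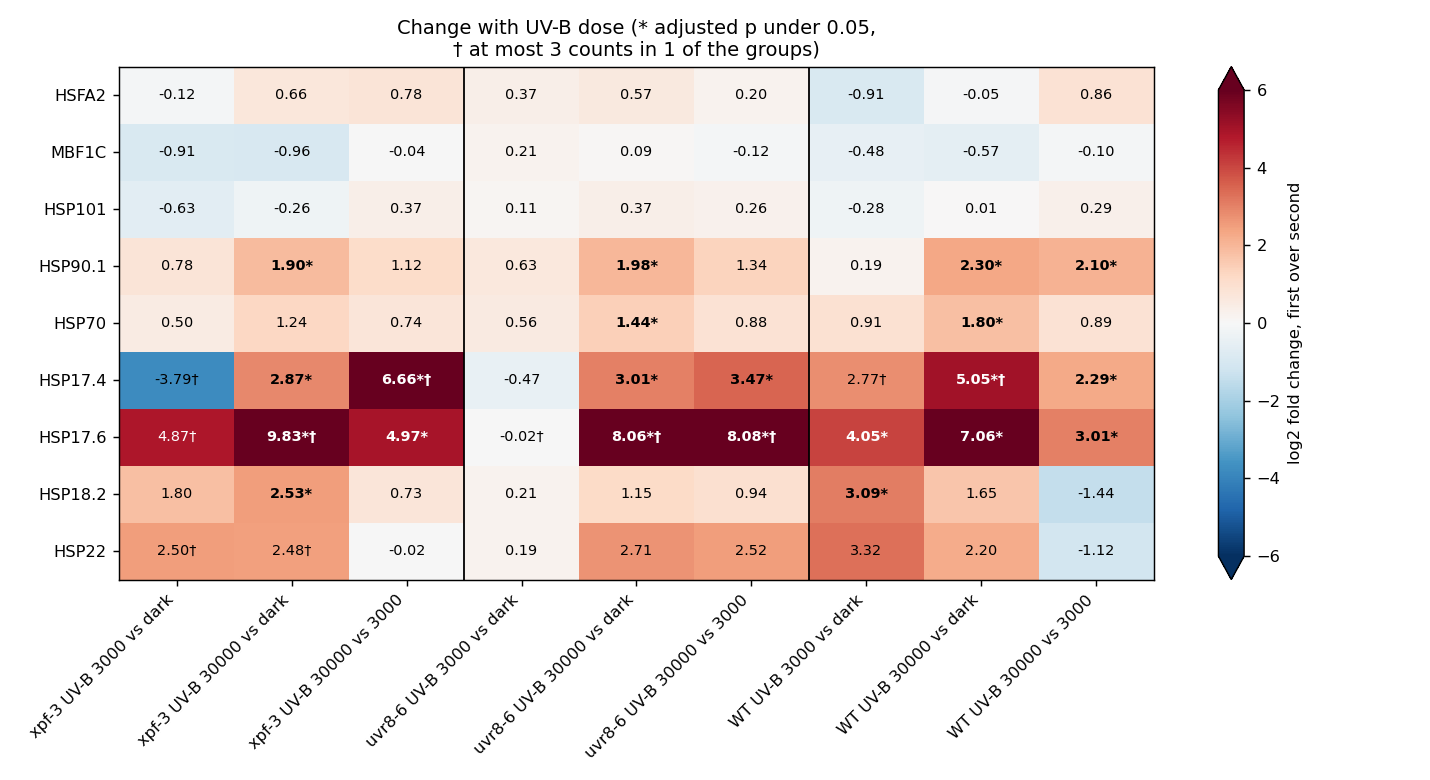
Log2 fold change of the 9 tested genes between doses within xpf-3, uvr8-6 and WT, the group named first over the group named second. Stars mark an adjusted p under 0.05 (edgeR), and daggers mark a group with at most 3 counts in all, where the fitted fold change depends on the prior count. Bounds or counting intervals are given in the text for daggered folds of the high dose, not for those of the low dose against the dark. HSP90.1, HSP17.4 and HSP17.6 are starred at the high dose against the dark in all 3 genotypes and HSFA2, MBF1C and HSP101 nowhere. HSP17.4 and HSP17.6 were tested because they were high after the high dose, so their stars there are a description.

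HSP17.4, HSP17.6, HSP21 and HSP22 held 0 to 11 counts per genotype in the dark and HSP18.2 held 21 to 76, and HSP17.6 and HSP17.4 rose after the high dose in all 3 genotypes. HSP17.6 reached the cutoff of the filter on low counts (0.93 CPM) in 10 libraries and HSP17.4 in 8, and these were high-dose libraries apart from WT UV-B 3000 replicate 1, with 0 dark libraries. Both genes were thus tested because they were high after the high dose. Their calls for the high dose, against the dark and against the low dose, are a description. Without the filter the calls of HSP17.6 against the dark held in all 3 genotypes and those of HSP17.4 in uvr8-6 and WT. HSP17.6 (AT5G12020, chr5:3882231-3883111, minus strand, 1 exon) had 0 counts in the 3 xpf-3 dark libraries, 0.530, 0.122 and 0.296 CPM after the low and 5.68, 13.8 and 11.2 CPM after the high dose. In uvr8-6 it had 0.0617, 0 and 0.0644 CPM in the dark, 0, 0.132 and 0 CPM after the low and 6.22, 25.9 and 12.3 CPM after the high dose. In WT it had 0, 0.505 and 0 CPM in the dark, 7.51, 0.0882 and 0.359 CPM after the low and 24.9, 16.6 and 15.37 CPM after the high dose. All 9 high-dose libraries lay above the dark and low-dose libraries of their genotype. In xpf-3, 214 counts after the high dose stood against 0 in the dark, so that HSP17.6 was at least 100.2-fold higher, taking 3 counts over the dark group as the floor (adjusted p = 9.33e-05). In uvr8-6, 630 counts against 2 gave a ratio of 328, with a counting interval of 90.42 to 2714 that covers counting error only (adjusted p = 2.65e-05). In WT the log2 fold change was 7.06 ± 1.18 (adjusted p = 3.33e-05). Leaving out any 1 library kept these 3 calls, and without WT dark replicate 2, which held every WT dark count, the fitted WT value was 10.7 (adjusted p = 0.000187). The high dose exceeded the low dose by a log2 fold change of 4.97 ± 1.08 in xpf-3 (adjusted p = 0.00367) and 3.01 ± 0.79 in WT (adjusted p = 0.00423), and by a ratio of 333.8 in uvr8-6 (counting interval 92.02 to 2762, adjusted p = 5.11e-05). Without WT UV-B 3000 replicate 1 the WT difference between the doses was 6.32 (adjusted p = 4.95e-06), and with DESeq2 it was 2.86 (adjusted p = 0.0536).

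HSP17.4 (AT3G46230, chr3:16984118-16984867, minus strand, 1 exon) had 0, 0.321 and 0.118 CPM in xpf-3 dark libraries, 0 in all 3 libraries after the low and 0.237, 1.35 and 1.58 CPM after the high dose. In uvr8-6 HSP17.4 had 0.185, 0.216 and 0.0644 CPM in the dark, 0.134, 0.132 and 0.0609 CPM after the low and 0.212, 2.39 and 1.38 CPM after the high dose. In WT HSP17.4 had 0, 0.126 and 0.0884 CPM in the dark, 1.84, 0 and 0 CPM after the low and 3.61, 1.94 and 1.97 CPM after the high dose. High-dose WT libraries did not overlap the others, while replicate 1 of each mutant stayed near the dark level after the high dose. HSP17.4 rose after the high dose by a log2 fold change of 2.87 ± 1.25 in xpf-3 (adjusted p = 0.0445) and 3.01 ± 0.998 in uvr8-6 (adjusted p = 0.0141). In WT 57 counts against 2 gave a ratio of 39.3, with a counting interval of 10.4 to 332.6 (adjusted p = 0.0012). The WT call held without any 1 library. The xpf-3 value lost its call without dark replicate 1 or 3 or UV-B 30000 replicate 2 or 3 (2.30 to 2.73 on the log2 scale, adjusted p = 0.0994 to 0.13), and the uvr8-6 value without dark replicate 3 (2.65, adjusted p = 0.0595) or UV-B 30000 replicate 2 (2.33, 0.0791). The xpf-3 call was also lost without the filter (adjusted p = 0.0538), with DESeq2 (0.0594) and with a replicate block over all genotypes (0.0532). Against the low dose it was at least 11.01-fold higher in xpf-3 (23 counts against 0, adjusted p = 0.0258), 3.47 ± 1.05 higher on the log2 scale in uvr8-6 (adjusted p = 0.0128) and 2.29 ± 0.90 higher in WT (adjusted p = 0.0419). Those 3 calls were each lost without some libraries (all but UV-B 30000 replicate 1 in xpf-3, UV-B 3000 replicate 3 or UV-B 30000 replicate 2 in uvr8-6, all but UV-B 3000 replicate 1 in WT), at adjusted p = 0.0557 to 0.175. Leaving out WT UV-B 3000 replicate 1, which held every low-dose WT count, gave a fitted WT value of 7.79 (adjusted p = 0.000296), and the WT call was lost with DESeq2 (0.135), without the filter (0.0649) and in a fit of only the groups compared (0.0996).

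HSP18.2 (AT5G59720, chr5:24062323-24063300, plus strand, 1 exon) had 0.641, 1.07 and 0.591 CPM in xpf-3 dark libraries, 4.14, 1.71 and 2.27 CPM after the low and 4.73, 4.55 and 4.30 CPM after the high dose. In uvr8-6 HSP18.2 had 1.60, 2.01 and 1.42 CPM in the dark, 1.68, 1.98 and 2.13 CPM after the low and 3.67, 3.77 and 3.71 CPM after the high dose. In WT HSP18.2 had 2.51, 0.883 and 0.796 CPM in the dark, 36.3, 1.41 and 0.718 CPM after the low and 7.73, 3.07 and 2.77 CPM after the high dose. The mutants' high-dose libraries sat close together above their dark libraries, and 1 WT library, UV-B 3000 replicate 1, stood far above all the others. HSP18.2 rose after the high dose in xpf-3, by a log2 fold change of 2.53 ± 1.09 (adjusted p = 0.0423), and the call was lost without any 1 of its 6 libraries (2.35 to 2.85, adjusted p = 0.0635 to 0.102) and without the filter (2.56, 0.0643). After the high dose it differed by 1.15 ± 0.87 in uvr8-6 (adjusted p = 0.265) and 1.65 ± 0.96 in WT (adjusted p = 0.136). In fits of only the groups compared HSP18.2 passed after the high dose in uvr8-6 (1.09, adjusted p = 0.0045) and WT (1.67, 0.035), between the doses in uvr8-6 (0.87, 0.0131) and at the low dose in xpf-3 (1.85, 0.0033, against 1.80 and 0.158 with all groups).

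WT UV-B 3000 replicate 1 set the low-dose values of the small heat shock proteins in WT. At the low dose in WT, HSP18.2 (log2 fold change 3.09 ± 0.91, adjusted p = 0.0152) and HSP17.6 (4.05 ± 1.44, adjusted p = 0.0454) passed. Without that library HSP18.2 was at -0.45 (adjusted p = 0.6) and HSP17.6 at 0.71 (adjusted p = 0.798). Both calls were also lost without WT dark replicate 2 (adjusted p = 0.064 and 0.0513, HSP17.6 at 7.69) or 3 (0.0762 and 0.159), and that of HSP17.6 without WT dark replicate 1 (0.121). That of HSP17.6 was lost without the filter (0.0762) and with a replicate block over all genotypes (0.0648), and that of HSP18.2 in a fit of only the groups compared (0.192). Between the doses in WT, HSP18.2 differed by -1.44 ± 0.82 with all libraries (adjusted p = 0.158), by 2.05 without that library (adjusted p = 0.00208), and by -2.04 and -2.06 without UV-B 3000 replicate 2 or 3 (adjusted p = 0.0339 and 0.022). Other small heat shock protein genes stood high in the same library, as described below.

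HSP22 (AT4G10250, chr4:6370338-6371372, plus strand, 1 exon) had 0, 0.107 and 0.118 CPM in xpf-3 dark libraries, 0.954, 0.366 and 0.0986 CPM after the low and 0.473, 0.615 and 0.286 CPM after the high dose. In uvr8-6 HSP22 had 0.185, 0.0719 and 0.129 CPM in the dark, 0.269, 0.066 and 0.122 CPM after the low and 0.495, 1.39 and 0.898 CPM after the high dose. In WT HSP22 had 0.0836, 1.14 and 0.0884 CPM in the dark, 12.2, 0 and 0 CPM after the low and 4.77, 0.162 and 0.231 CPM after the high dose. Replicate 1 of WT was again the highest after UV-B, and the high-dose libraries of both mutants lay above their dark libraries. HSP22 did not pass after the high dose, at a ratio of 6.32 in xpf-3 (9 counts against 2, counting interval 1.31 to 60.1, adjusted p = 0.401) and at log2 fold changes of 2.71 ± 1.65 in uvr8-6 (adjusted p = 0.167) and 2.20 ± 1.503 in WT (adjusted p = 0.205). At the low dose in WT it stood at 3.32 ± 1.39 (adjusted p = 0.086), and without UV-B 3000 replicate 2 or 3 at 3.95 (adjusted p = 0.0322 and 0.0272). Between the doses in WT it was at -1.12 ± 1.16 (adjusted p = 0.452), and at 7.27 without UV-B 3000 replicate 1 (adjusted p = 0.00685), which leaves the low dose at 0 counts.

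HSP21 (AT4G27670, chr4:13818825-13819971, minus strand, 2 exons) had 16 counts in all. They were 5, 2 and 1 in the WT high-dose libraries, 5 in uvr8-6 UV-B 30000 replicate 2, 1 in xpf-3 UV-B 3000 replicate 1 and 1 each in xpf-3 UV-B 30000 replicates 1 and 2. All 9 dark libraries were at 0, a level too low for a test.

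Counts of members were read against all tested genes. After the high dose 4 of the 9 tested members rose in each genotype and 0 fell, where 73.3% of all tested genes passed in xpf-3 (37.8% higher), 57.7% in uvr8-6 (32.2% higher) and 64.5% in WT (33% higher). The share of members that rose is therefore near the background, and 2 of the 4, HSP17.4 and HSP17.6, were tested only through libraries in which they were high. HSP90.1, HSP17.4 and HSP17.6 were among the 4 in every genotype, with HSP18.2 as the fourth in xpf-3 and HSP70 as the fourth in uvr8-6 and WT. After the low dose 0 members passed in xpf-3, where 67.3% of tested genes did, and 0 in uvr8-6, where 5.51% did, while 2 rose in WT, where 25.6% of genes passed and 12.9% were higher. In xpf-3 at the low dose 0 members had an unadjusted p under 0.05 and DESeq2 called 1, HSP17.6, with 9 counts against 0 (adjusted p = 0.0422, beside 60.3% of the genes it tested). In uvr8-6 at the low dose both counts were 0, and the 1090 genes that passed there were 410 without dark replicate 3 and 513 without UV-B 3000 replicate 2. Between the doses 2 members were higher after the high dose in xpf-3 (19.5% of genes passed, 10.5% higher), 2 in uvr8-6 (40.8%, 22.3% higher) and 3 in WT (46.4%, 22.9% higher). For xpf-3 those 3855 genes were 2448 without UV-B 3000 replicate 2. The 2 members of each mutant were HSP17.4 and HSP17.6, and both were among the 3 in WT. They were tested only through libraries in which they were high, so these counts between the doses are a description. With the replicate block, 4 members passed between the doses in uvr8-6 (46.6% of genes) and 3 at the low dose in WT (30.4% of genes). Values lay above the dark in every library after the high dose for 4 members in xpf-3, 3 in uvr8-6 and 6 in WT with HSP21 included, where this held for 38.4%, 34.8% and 33.5% of tested genes. After the low dose it held for 3 members in xpf-3 (HSP90.1, HSP17.6 and HSP18.2) and for 35.6% of genes. High-dose values lay above all low-dose values for 3 members in xpf-3, 4 in uvr8-6 and 5 in WT, where this held for 23.4%, 28.7% and 27.8% of genes. HSP17.6 was in every one of these counts of values above another group, and the same limit holds there.

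Genotypes were compared in the dark and in their response to UV-B. In the dark 0 members differed between xpf-3 and WT, where 33 of 19794 genes did (0.167%), with 0 at an unadjusted p under 0.05 and 0 by DESeq2. HSP101 was the 1 member that differed between uvr8-6 and WT, where 31.4% of genes did (17.2% lower), and uvr8-6 libraries lay wholly below WT libraries for 20.1% of genes. The response to UV-B (log2 fold change against the dark, mutant minus WT) was tested for each dose, and 0 members passed in any of the 4 tests. Of all genes, 29.6% passed for xpf-3 at 3000 and 9.34% at 30000 µmol m-2, and 0.788% and 8.21% for uvr8-6. Those shares depend on single libraries. The 1849 genes for xpf-3 at the high dose were 177 without WT dark replicate 1, 236 without WT UV-B 30000 replicate 2 and 714 without xpf-3 dark replicate 3, and 63 without the 3 xpf-3 replicate 3 libraries. Leaving out 1 library at a time gave 3357 to 6272 in place of 5854 genes for xpf-3 at the low dose, 57 to 318 in place of 156 for uvr8-6 at the low and 896 to 2377 in place of 1625 at the high dose. In the dark it gave 14 to 63 in place of 33 genes for xpf-3 and 3668 to 7827 in place of 6223 for uvr8-6. HSP18.2 for uvr8-6 at the low dose was the 1 member with an unadjusted p under 0.05 (-2.88 ± 1.29, adjusted p = 0.553 in edgeR), and without WT UV-B 3000 replicate 1 it was at 0.64 (adjusted p = 0.913). DESeq2 called 1 member, HSP17.4 for xpf-3 at the low dose (-5.997, adjusted p = 0.035, beside 31.5% of its genes), whose xpf-3 low-dose libraries held 0 counts. Every WT low-dose count of HSP17.4 was in WT UV-B 3000 replicate 1. Without that library the edgeR difference was -0.99, in place of -6.56 (adjusted p = 0.131). Without WT UV-B 3000 replicate 1, HSP18.2 passed for xpf-3 at the low dose in the opposite direction (2.34, adjusted p = 0.0202, against -1.29 ± 1.51 and 0.55). The errors were wide: the high-dose response of HSP90.1 differed from that of WT by -0.40 ± 0.88 in xpf-3 and -0.32 ± 0.85 in uvr8-6, and that of HSP70 by -0.56 ± 0.83 and -0.35 ± 0.83 (± SE). The tests of both mutants share the WT libraries.

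Within groups, the 2 regulators and the 3 large chaperones moved together from library to library. After the group mean was taken off each log2 CPM value, HSFA2, MBF1C, HSP101, HSP90.1 and HSP70 correlated at Pearson r = 0.883 to 0.946 in their 10 pairs over 27 libraries (Spearman rho 0.871 to 0.93). Within genotypes r was 0.878 to 0.972 in xpf-3, 0.945 to 0.992 in uvr8-6 and 0.667 to 0.967 in WT (9 libraries each), and without the 2 libraries farthest from the median it was 0.852 to 0.931. The values of a library share its depth and scaling, so r is a description. The within-group SD was 1.13 for HSFA2, 0.760 for MBF1C, 0.601 for HSP101, 0.768 for HSP90.1 and 0.751 for HSP70 on the log2 scale, against a median of 0.228 over all tested genes. These SDs were larger than those of 99.6, 97, 92.1, 97.2 and 96.9% of tested genes.

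The mean deviation of the 5 genes was 0.914, 0.940 and 1.26 in replicate 2 of uvr8-6 in the dark, after the low and after the high dose, and -0.666, -0.985 and -0.764 in replicate 1 (log2 scale). In replicate 3 of xpf-3 it was -0.535, -0.652 and -1.10. In WT dark libraries it was -0.268, -0.720 and 0.988, and after the high dose -0.0143, -0.201 and 0.215. Replicate 2 of uvr8-6 was thus high, and replicate 1 of uvr8-6 and replicate 3 of xpf-3 low, at every dose, and of the 9 groups the high-dose WT libraries were the closest together. The mean deviation of the 5 genes correlated at r = -0.103 with the deviation of the log2 library total, 0.338 with the rRNA share and 0.363 with the organelle share. It correlated at -0.699 with the summed markers of etiolated growth (7 genes), -0.504 with those of green tissue, 0.334 with the root endodermis, 0.146 with shoot apex and stomata (7 genes) and -0.0734 with seed (15 genes), over 27 libraries each. Their part in the deviations was not tested.

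**Figure D3:**
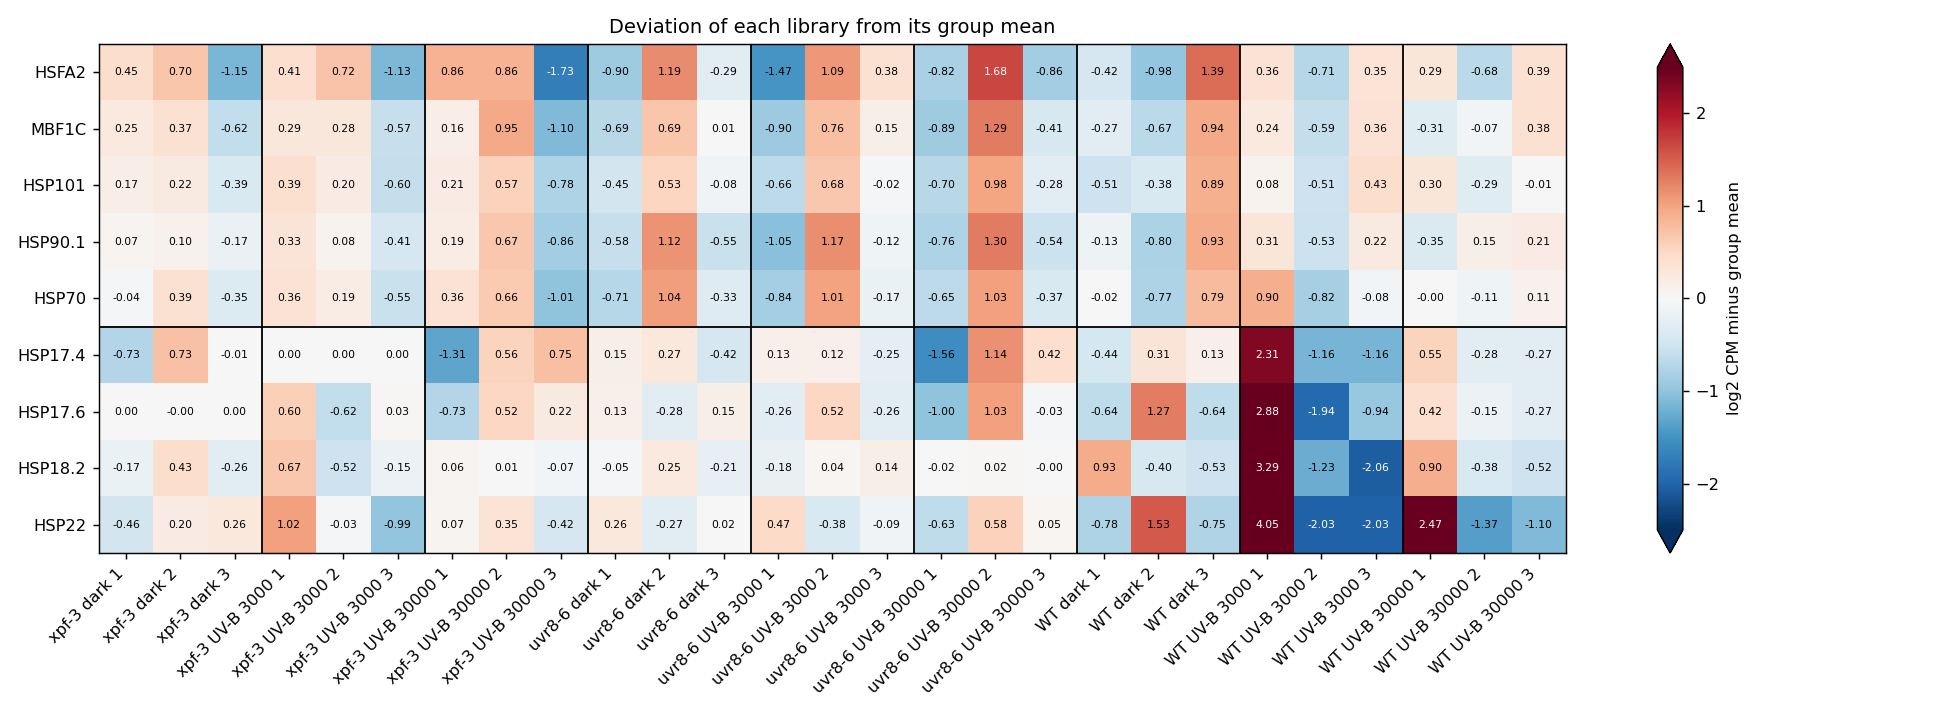
Deviation of each library from its group mean in log2 CPM for the 9 tested genes, with libraries in columns by genotype, dose and replicate number. The 5 genes above the line move together, high in replicate 2 of uvr8-6 and low in replicate 3 of xpf-3, while the small heat shock proteins below it are highest in WT UV-B 3000 replicate 1.

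The deviations of HSP17.4, HSP17.6, HSP18.2 and HSP22 correlated with each other at r = 0.651 to 0.827 and with the 5 genes at -0.0077 to 0.371. WT UV-B 3000 replicate 1 held the highest value of its group for all 4. Genes whose deviations were most like the mean of the 5 were named after their values were seen. They were SR45a (AT1G07350, r = 0.950), a splicing factor gene, AT2G20560 (0.944), a DnaJ-type co-chaperone gene, AT3G07090 (0.943) and AT3G14200 (0.937). Stress genes among those that followed were DREB2A (AT5G05410, 0.910), a transcription factor of drought and heat responses, HOP3 (AT4G12400, 0.879), a co-chaperone that links HSP70 and HSP90, and HSFB2A (AT5G62020, 0.870), a heat shock factor. The median r with the mean of the 5 was 0.663 over 9 other small heat shock protein genes, 0.622 over 17 co-chaperone genes, 0.421 over 19 other HSP70, HSP90 and HSP100 genes, 0.338 over 16 other heat shock factor genes and 0.134 over 12 endoplasmic reticulum stress genes. Over 16580 genes with a mean log2 CPM of at least 1 it was -0.0109. The 6 stress lists in this and the next paragraphs were assembled from textbook families, with earlier results of these data known.

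Other heat shock factors changed in both directions. Of 18 tested, 5 rose and 8 fell in xpf-3, 3 rose and 3 fell in uvr8-6, and 5 rose and 6 fell in WT after the high dose. The counts after the low dose were 5 and 7 in xpf-3, 0 and 0 in uvr8-6, and 3 and 5 in WT. In all, 72.2, 33.3 and 61.1% of the list passed after the high dose, beside 73.3, 57.7 and 64.5% of all tested genes, and 66.7, 0 and 44.4% after the low dose, beside 67.3, 5.51 and 25.6%. Over the 6 lists together (85 genes tested), rises and falls counted alike, the shares were 62.4, 52.9 and 60% after the high and 57.6, 4.71 and 28.2% after the low dose. They were below those of all genes in each case but WT at the low dose. Pooled shares do not show direction. The share of all tested genes that were higher after the high dose was 37.8, 32.2 and 33%, to be read beside the rises of each list below. HSFA4A (AT4G18880), a factor linked to reactive oxygen, averaged 30.8 ± 1.87 CPM in xpf-3, 22.8 ± 7.51 CPM in uvr8-6 and 38.2 ± 8.82 CPM in WT after the high dose, against 2.95 ± 1.23, 3.52 ± 0.340 and 2.40 ± 0.362 CPM in the dark (SD, n = 3 each). Its log2 fold changes were 3.39 ± 0.28, 2.69 ± 0.25 and 3.97 ± 0.28 (adjusted p = 3.35e-10, 7.76e-09 and 3.51e-11). HSFA8 (AT1G67970) rose by 2.44 ± 0.20, 1.75 ± 0.17 and 2.98 ± 0.20, and HSFA3 (AT5G03720), which acts downstream of DREB2A in heat, by 1.71 ± 0.21, 1.13 ± 0.18 and 1.80 ± 0.19. HSFA7B (AT3G63350), a heat-induced factor, fell by 2.22 ± 0.33 in xpf-3, 1.11 ± 0.28 in uvr8-6 and 2.78 ± 0.34 in WT on the log2 scale. The median of the list was -0.12 in xpf-3, 0.01 in uvr8-6 and -0.08 in WT.

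Of 6 other heat response regulators, 4 rose in each genotype after the high dose, and 1, 0 and 1 fell in xpf-3, uvr8-6 and WT. After the low dose 4 rose in xpf-3, 1 in uvr8-6 and 2 in WT, and 1 fell in xpf-3. MBF1A (AT2G42680), of the same coactivator family as MBF1C, averaged 260.1 ± 1.403 CPM in xpf-3, 205 ± 29.6 CPM in uvr8-6 and 273 ± 31.9 CPM in WT after the high dose, against 113 ± 7.04, 119 ± 4.41 and 108 ± 2.82 CPM in the dark (SD, n = 3 each). Its log2 fold changes were 1.201 ± 0.11, 0.79 ± 0.11 and 1.34 ± 0.11 (adjusted p = 1.76e-09, 1.97e-06 and 3.57e-10). DREB2C (AT2G40340), a transcription factor of heat and drought responses, rose by 4.49 ± 0.58, 2.61 ± 0.42 and 5.35 ± 0.57. MBF1B (AT3G58680), the third family member, rose by 0.66 ± 0.09, 0.41 ± 0.09 and 0.26 ± 0.09.

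Among 13 other small heat shock protein genes, 9 rose in xpf-3, 8 in uvr8-6 and 8 in WT after the high dose, and 0 fell. These were 69.2, 61.5 and 61.5% of the list, where 37.8, 32.2 and 33% of all tested genes were higher. A list gene near 0 in the dark could pass the filter on low counts only through libraries in which it was high. Low-dose libraries gave 5 that rose in xpf-3, 1 in uvr8-6 and 4 in WT, and 0 fell. The medians after the high dose were 2.28 in xpf-3, 2.22 in uvr8-6 and 2.85 in WT on the log2 scale. HSP23.5 (AT5G51440) and HSP23.6 (AT4G25200) encode mitochondrial small heat shock proteins. HSP23.5 averaged 3.22 ± 2.26, 125 ± 14.71 and 100.1 ± 17.1 CPM in the dark, after the low and after the high dose in xpf-3, 11.04 ± 7.86, 39.9 ± 13.1 and 73.4 ± 32.7 CPM in uvr8-6, and 5.35 ± 2.82, 67.4 ± 20.9 and 118 ± 26.7 CPM in WT (SD, n = 3 each). It was past the threshold at the low dose in all 3 genotypes (5.26 ± 0.54, 1.86 ± 0.44 and 3.60 ± 0.49 on the log2 scale, adjusted p = 4.98e-08, 0.0147 and 2.01e-05). The 4 tested small heat shock protein members passed at the low dose in neither mutant in the fit of all libraries. In WT their calls were lost without WT UV-B 3000 replicate 1. The mutant comparisons were not refitted without that library. HSP18.2 passed at the low dose in xpf-3 in a fit of only the groups compared (1.85, adjusted p = 0.0033). HSP23.6 rose after the high dose by a ratio of 384.7 in xpf-3 (274 counts against 1, counting interval 68.48 to 15250) and by log2 fold changes of 5.22 ± 0.78 in uvr8-6 and 6.04 ± 0.85 in WT. HSP17.7-CII (AT5G12030), whose coding sequence is 86.2% identical to that of HSP17.6, rose by 4.496 ± 0.93 in xpf-3, 5.00 ± 0.92 in uvr8-6 and 4.44 ± 0.87 in WT after the high dose. HSP17.6C-CI (AT1G53540) is 85% identical to HSP17.4. The longest exact stretch of transcript shared within these pairs is 33 bases for HSP17.6 and 29 bases for HSP17.4, and the split of any reads that fit both genes is uncertain. HSP17.6C-CI rose at the low dose in WT by 3.96 ± 1.43 (adjusted p = 0.0464), and without WT UV-B 3000 replicate 1 it was at -3.967 (adjusted p = 0.284).

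Of 19 other HSP70, HSP90 and HSP100 genes, 12 rose in xpf-3, 15 in uvr8-6 and 13 in WT after the high dose, and 0 fell. These were 63.2, 78.9 and 68.4% of the list, where 37.8, 32.2 and 33% of all tested genes were higher. After the low dose 11 rose and 1 fell in xpf-3, 2 rose in uvr8-6 and 6 in WT. The medians after the high dose were 0.69, 0.85 and 0.81 on the log2 scale. The mitochondrial HSP70 gene mtHSC70-1 (AT4G37910) averaged 72.0 ± 13.8, 469 ± 3.68 and 343 ± 38.8 CPM in the dark, after the low and after the high dose in xpf-3, 76.7 ± 16.5, 143 ± 15.6 and 223 ± 6.76 CPM in uvr8-6, and 72.0 ± 21.1, 327 ± 70.2 and 481 ± 50.8 CPM in WT (SD, n = 3 each). It passed at both doses in all 3 genotypes, at the low dose by 2.70 ± 0.19, 0.90 ± 0.18 and 2.18 ± 0.19 (adjusted p = 7.12e-11, 0.0038 and 1.46e-08). The mitochondrial HSP90.6 (AT3G07770) rose after the high dose by 2.02 ± 0.23, 1.25 ± 0.22 and 1.77 ± 0.23, and the chloroplast cpHSC70-2 (AT5G49910) by 1.97 ± 0.18, 1.18 ± 0.17 and 0.70 ± 0.17. The chloroplast HSP70 gene cpHSC70-1 (AT4G24280) rose by 2.16 ± 0.26, 1.204 ± 0.25 and 1.16 ± 0.25.

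**Figure D4:**
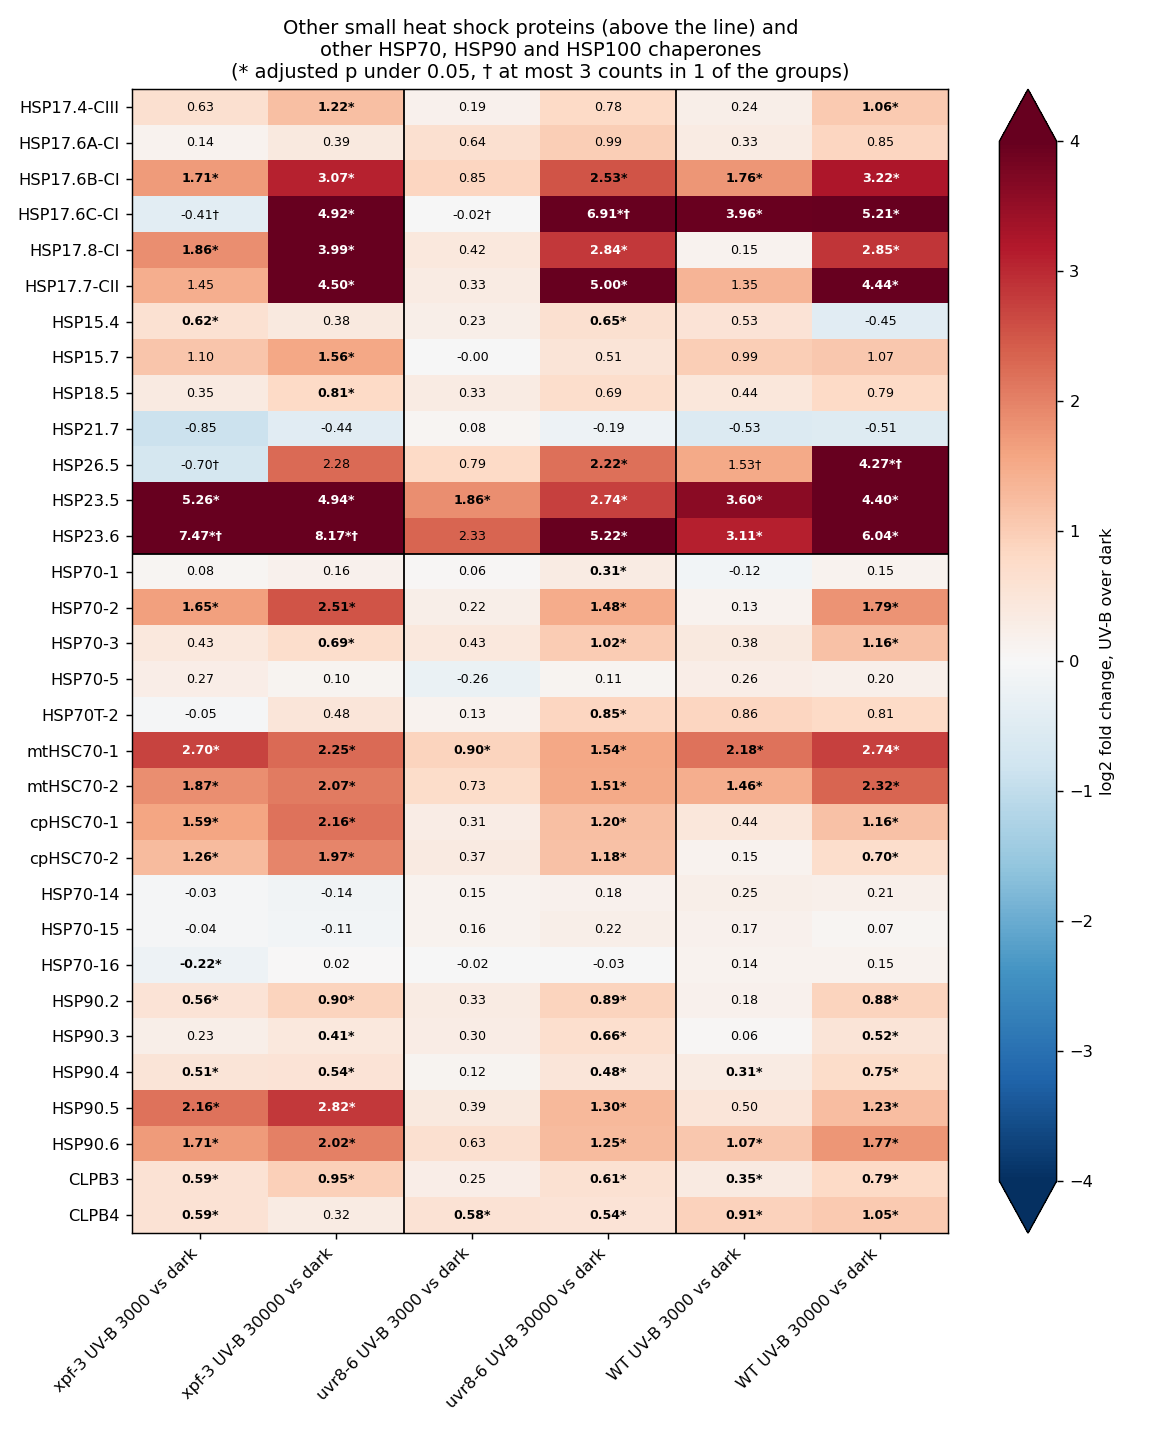
Log2 fold change of UV-B over dark for 13 other small heat shock protein genes (above the line) and 19 other HSP70, HSP90 and HSP100 genes, for both doses in xpf-3, uvr8-6 and WT. Stars mark an adjusted p under 0.05 (edgeR) and daggers a group with at most 3 counts in all; mtHSC70-1 and HSP23.5 are starred in all 6 comparisons.

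Co-chaperones and partners of the large chaperones included 10 of 17 that rose in xpf-3, 10 in uvr8-6 and 12 in WT after the high dose, with 1, 0 and 0 that fell. After the low dose 7 rose and 1 fell in xpf-3, 0 changed in uvr8-6 (edgeR), and 3 rose in WT. SGT1A (AT4G23570), a partner of HSP90, rose after the high dose by 1.96 ± 0.22, 1.73 ± 0.21 and 1.93 ± 0.22 on the log2 scale. HOP1 (AT1G12270), which joins HSP70 to HSP90, rose by 0.82 ± 0.12, 0.53 ± 0.11 and 0.60 ± 0.11, and ATJ2 (AT5G22060), a J-domain protein, by 0.80 ± 0.14, 0.81 ± 0.14 and 1.14 ± 0.14. Of 12 endoplasmic reticulum stress genes, 2 rose in each genotype after the high dose, and 1 fell in xpf-3. The low dose gave 2 that rose and 5 fell in xpf-3, 0 changed in uvr8-6 and 1 rose in WT. BZIP60 (AT1G42990), a transcription factor of the unfolded protein response, rose after the high dose by 1.16 ± 0.16, 0.97 ± 0.16 and 1.71 ± 0.16, while BIP2 (AT5G42020), the HSP70 of the endoplasmic reticulum, fell by 0.51 ± 0.18 at the low dose in xpf-3 (adjusted p = 0.0158).

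For HSFA2, MBF1C and HSP101, the genes with the most similar 9 group means were sought among genes with a mean log2 CPM of at least 1. HSFA2, whose group means spanned 1.69 on the log2 scale, was closest to HOG1 (AT4G13940, r = 0.953), UREG (AT2G34470, 0.950), GAMMA CAL2 (AT3G48680, 0.949), AT5G20660 (0.944) and GLY2 (AT3G10850, 0.942). MBF1C spanned 1.39 and was closest to AT4G09150 (0.987), LRB1 (AT2G46260, 0.987), AT4G28260 (0.984), CKL4 (AT4G28860, 0.981) and VSR4 (AT2G14720, 0.980). HSP101 was closest to ARIA (AT5G19330, 0.980), SEC (AT3G04240, 0.978), AT1G03370 (0.978), ZFWD1 (AT4G25440, 0.978) and AT3G58110 (0.978). These values are over 9 group means that rest on the same libraries.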

How the data were processed

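The authors deposited a table of read counts per locus for 27 TruSeq stranded RNA libraries, per the file headers. FastQC, Trimmomatic, HISAT2 and DESeq2 are named in the submitters' processing notes. Sources used here name no genome build, annotation or counter. The members and gene lists were chosen with earlier results of these data known. Counts as deposited were fitted with edgeR 4.0.16 (R 4.3.3; TMM, filterByExpr at 0.93 CPM in 3 libraries, robust quasi-likelihood F test, two-sided) in 1 model of 9 groups (18 residual degrees of freedom). The p-values were Benjamini-Hochberg adjusted over 19794 genes, with a threshold of 0.05. CPM used TMM-scaled totals, and log2 CPM a prior count of 2. Errors of log2 fold changes are SEs from the F test. Counting intervals are exact, at 95%. The scripts were tested on simulated data. Alternatives were DESeq2 1.42.0 and its size factors, no filter, separate fits, replicate blocks and leaving out libraries. Same-numbered libraries were taken as paired where every pair's deviations over all genes correlated above 0.1. This held for WT UV-B 3000 against dark (lowest r 0.133) and the 3 uvr8-6 comparisons (0.177, 0.156 and 0.215). The highest r of differently numbered libraries was 0.285 there in WT, and 0.196, 0.173 and 0.0768 in uvr8-6. Among these comparisons, every same-numbered pair exceeded it only in the last. In xpf-3 UV-B 30000 against dark every pair exceeded it too (0.0154), but the lowest r was 0.0363. That comparison was not taken as paired. The labels do not say what the numbers mark. All 10 members, the 5 genes of most similar pattern for HSFA2, MBF1C and HSP101, and up to 4 genes of smallest p per list were named. In the locus table, 32547 loci matched the RefSeq gene table.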

Additional observations from a re-analysis of the deposited data

Results flagged for a closer look

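No member passed a test of its response in a mutant against that in WT, but genes of the surrounding stress lists did. They were 11 of 85 (12.9%) after the low and 3 (3.53%) after the high dose for xpf-3, beside 29.6 and 9.34% of all tested genes, and 2 (2.35%) and 8 (9.41%) for uvr8-6, beside 0.788 and 8.21%. Of these 4 shares, the 2 for xpf-3 are below that of all genes. Each value below is a difference of log2 fold changes against the dark (mutant minus WT, edgeR, ± SE). At the low dose in xpf-3 the response was larger for HSFA3 (1.41 ± 0.29, adjusted p = 0.00116), cpHSC70-2 (1.11 ± 0.25), HSP90.5 (1.66 ± 0.51), cpHSC70-1 (1.15 ± 0.35), SGT1A (1.07 ± 0.32), BZIP60 (0.75 ± 0.22), MBF1A (0.51 ± 0.15), MBF1B (0.36 ± 0.13) and DREB2B (2.14 ± 0.80, adjusted p = 0.046), and lower for HSP70-16 (-0.35 ± 0.11, adjusted p = 0.0222). WT dark libraries varied widely for HSP90.5 (117 ± 103 CPM) and cpHSC70-1 (174 ± 100.1 CPM, SD, n = 3 each).

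At the high dose in xpf-3 it was larger for cpHSC70-2 (1.27 ± 0.25, adjusted p = 0.00784) and MBF1B (0.40 ± 0.13, adjusted p = 0.0474), and lower for CLPB4 (-0.73 ± 0.21, adjusted p = 0.0342).

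In uvr8-6, sequenced in another run than WT, the response at the low dose was lower for mtHSC70-1 (-1.28 ± 0.26, adjusted p = 0.016) and HSFA8 (-1.28 ± 0.27, adjusted p = 0.0234). At the high dose it was lower for HSFA8 (-1.24 ± 0.26, adjusted p = 0.00542), mtHSC70-1 (-1.20 ± 0.26, adjusted p = 0.0062), MBF1A (-0.55 ± 0.15), DREB2C (-2.74 ± 0.78), BZIP60 (-0.75 ± 0.22) and HSFA4A (-1.28 ± 0.38, adjusted p = 0.0379), and larger for HSFA7B (1.67 ± 0.45, adjusted p = 0.0241) and HSP15.4 (1.11 ± 0.34, adjusted p = 0.0458).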

How the results depend on the processing

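Counts of passing members out of 9 moved with several settings. DESeq2 called 1 in place of 2 (WT UV-B 3000 vs dark), 1 in place of 3 (WT 30000 vs 3000), 2 in place of 4 (xpf-3 30000 vs dark), 1 in place of 0 (xpf-3 3000 vs dark) and 1 in place of 0 (xpf-3 minus WT response at 3000). Without the low-count filter 1 in place of 2 passed for WT 3000, 2 in place of 4 for xpf-3 30000 and 0 in place of 1 for uvr8-6 vs WT dark. Fits of only the groups compared gave 0 in place of 2 for WT 3000, 2 in place of 0 for xpf-3 3000, 1 in place of 2 for xpf-3 30000 vs 3000 and 0 in place of 1 for uvr8-6 vs WT dark. Without the 3 uvr8-6 replicate 2 libraries, left out after seeing the data, 2 in place of 4 passed for uvr8-6 30000 and 1 in place of 2 for 30000 vs 3000, and without the 3 xpf-3 replicate 3 libraries, likewise, 2 in place of 4 and 1 in place of 2 in xpf-3. The replicate block over all genotypes gave 1 in place of 2 for WT 3000. The replicate block within genotype gave 4 in place of 2 for uvr8-6 30000 vs 3000. In xpf-3, whose same-numbered libraries were not taken as paired, it gave 4 in place of 0 at 3000. HSP90.1 and HSP18.2 were then higher, and MBF1C (-0.90, adjusted p = 0.00643) and HSP101 (-0.65, 0.021) lower. In the other comparisons not taken as paired the block within genotype gave 6 in place of 4 (xpf-3 30000), 3 in place of 2 (xpf-3 30000 vs 3000), 5 in place of 4 (WT 30000) and 4 in place of 3 (WT 30000 vs 3000). The calls added for xpf-3 30000 were HSP70, higher (1.14, adjusted p = 0.00354), and MBF1C, lower (-1.06, 0.0023). In the paired comparisons the block gave 3 in place of 2 for WT 3000 and changed no count for uvr8-6 at 3000 or 30000 against dark. Leaving out 1 library at a time gave 0 to 3 (WT 3000), 3 to 4 (WT 30000), 2 to 5 (WT 30000 vs 3000), 2 to 3 (xpf-3 30000), 1 to 2 (xpf-3 30000 vs 3000), 1 to 4 (uvr8-6 30000), 1 to 3 (uvr8-6 30000 vs 3000), 0 to 1 (uvr8-6 vs WT dark) and 0 to 1 (xpf-3 minus WT at 3000), and 0 elsewhere. The cause was not tested.

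Values reversed without WT UV-B 3000 replicate 1, with the other end of the leave-one-out range beside each, for HSP18.2 (-0.45, 3.87 without WT dark replicate 1, for WT 3000 vs dark; 2.05, -2.12 without WT 30000 replicate 1, for WT 30000 vs 3000; 2.34, -2.07 without WT dark replicate 1, for xpf-3 minus WT at 3000), HSP22 (7.27, -4.20 without WT 30000 replicate 1, for WT 30000 vs 3000) and HSP17.6C-CI (-3.967, 4.80 without WT dark replicate 2, for WT 3000 vs dark). Of 1872 member values, 119 changed sign while passing in neither fit. Counts over all genes moved by over 1.5 times with DESeq2 (453 in place of 33 for xpf-3 vs WT dark, 263 in place of 156 for uvr8-6 minus WT at 3000), with the block (67 in place of 33 for xpf-3 vs WT dark, and 1742 in place of 1090 within genotype for uvr8-6 3000) and in fits of only the groups compared (1 in place of 33, 53 in place of 156, 602 in place of 1625, 661 in place of 1090, 2616 in place of 6223, 3023 in place of 5064 and 732 in place of 1849, for xpf-3 vs WT dark, uvr8-6 minus WT at 3000 and 30000, uvr8-6 3000, uvr8-6 vs WT dark, WT 3000 and xpf-3 minus WT at 30000). Leaving out 1 library at a time moved them by over 1.5 times for 8 of the 15 comparisons, to 177 to 2316 in place of 1849 (xpf-3 minus WT at 30000), 3357 to 6272 in place of 5854 (xpf-3 minus WT at 3000), 57 to 318 in place of 156 and 896 to 2377 in place of 1625 (uvr8-6 minus WT at 3000 and 30000), 410 to 1347 in place of 1090 (uvr8-6 3000), 3668 to 7827 in place of 6223 (uvr8-6 vs WT dark), as few as 2448 in place of 3855 (xpf-3 30000 vs 3000) and 14 to 63 in place of 33 (xpf-3 vs WT dark). Without the 3 xpf-3 replicate 3 libraries they were 63, 3894, 1819 and 21 (xpf-3 minus WT at 30000 and 3000, 30000 vs 3000, and vs WT dark), and without the 3 uvr8-6 replicate 2 libraries 66, 654 and 3908 (uvr8-6 minus WT at 3000, uvr8-6 3000 and uvr8-6 vs WT dark). At these depths HSP17.4, HSP21 and HSP22 held few counts, and summing near-identical copies was not run.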
